A study of Mus musculus and Homo sapiens with 22 samples.

Results

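The 9 genes described here, Hand1, Hand2, Nkx2-5, Isl1, Gata4, Gata6, Tbx5, Tbx18 and Tbx20, encode transcription factors that set cardiac fate, and the measurement is where PROX1 sat around them in 3 lists of CUT&RUN peaks. A peak was counted for a gene when its summit, the base of highest signal, lay in the gene body or within 50 kb of it, and the human genes were taken under the same names in capitals. The 9 genes were set against all 21911 protein-coding genes of the mouse annotation and all 20007 of the human one. Their windows held 43 of the 50159 mouse liver peaks, 33 of the 40531 listed for mouse embryonic fibroblasts (MEFs) and 9 of the 14369 listed for Hep3B cells, a human hepatocellular carcinoma line.

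PROX1 is a homeodomain transcription factor known from hepatocytes, lymphatic endothelium, lens and developing neurons, and it often acts as a repressor. The cardiac factors belong to 5 families that act together in the early heart: HAND1 and HAND2 are basic helix-loop-helix proteins of the ventricles, NKX2-5 is the NK homeodomain protein of cardiac progenitors, ISL1 is the LIM homeodomain protein of the second heart field, GATA4 and GATA6 are zinc finger proteins that bind GATA sites, and TBX5, TBX18 and TBX20 are T-box proteins of the chambers, the sinus horns and the valves. None of these genes is restricted to the heart, and GATA4 and GATA6 also act in the early liver and gut endoderm.

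The liver list came from untreated C57BL/6J mice aged 2 to 3 months, in which an antibody to PROX1 captured the endogenous protein (5 samples, beside 5 IgG samples). The MEFs came from C57BL/6N embryos at E13.5 and carried lentiviral rtTA and a doxycycline-driven FLAG-tagged mouse Prox1, while the Hep3B cells were a puromycin-selected stable line with a doxycycline-driven FLAG-tagged human PROX1. Both cultures received 2 µg/ml doxycycline for 2 days, and an antibody to FLAG captured the introduced protein (3 samples each, beside 3 IgG samples each). Each list pools the antibody samples of its group, so no value below has a replicate, an error or a test, and the read depth is unknown. Liver and cultures differ in tissue, antibody and the source of PROX1 at once, and MEF and Hep3B in cell type and species, so these cannot be told apart.

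The sequences printed below come from the mm10 and hg38 genomes. The first pair are sites that lay inside a liver peak and a MEF peak of Gata4 at the same time: a match to the PROX1 consensus at the Gata4 promoter (chr14:63245804-63245833), with the 12 matched bases in capitals, and a hexamer of the kind that nuclear receptors bind in a Gata4 intron (chr14:63207213-63207242), with AGGTCA in capitals. The next pair are the consensus matches in the second strongest liver peak in the Gata4 window (chr14:63212891-63212920) and in the MEF peak at the Tbx18 promoter (chr9:87731576-87731605). Each of the 3 consensus matches has 2 mismatches, and whether PROX1 sat on it was not tested. The Gata4 promoter match lay 278 bp from the liver summit and 456 bp from the MEF summit. The other matches lay 412 bp (Gata4 intron) and 130 bp (Tbx18) from theirs. All sequences of these pairs are given on the plus strand.
Gata4 promoter, liver and MEF: tggagactgCAAGGCGCCGAGaacctccac
Gata4 intron, liver and MEF: agaacagtagaaAGGTCAggagttcccaga
Gata4 intron, liver: gcaactcaaTAAGTCTTCTTAgcatgcgaa
Tbx18 promoter, MEF: aggatctttCAAGGACCCTTAaatctccgg

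Mouse Isl1 in MEFs and human ISL1 in Hep3B each had 1 peak, at the gene start, and both peaks spanned the same stretch of upstream sequence. The stretch holds a GATA site (TGATAA) and an E-box (CAGCTG), in capitals, the kinds of site that GATA and basic helix-loop-helix proteins bind. It is printed in the direction of transcription. In mouse it is mm10 chr13:116309719-116309818, minus strand, 30 to 129 bp upstream of the gene start. In human it is hg38 chr5:51383277-51383376, plus strand, 72 to 171 bp upstream of the gene start. Of its 100 bases, 97 were identical between the species, with no gap. The window was placed on this pair of sites after they had been seen. A second GATA site (AGATAA) lay nearer to the start, within 30 bases that were identical in both species (chr13:116309661-116309690 and chr5:51383405-51383434).
Isl1, MEF: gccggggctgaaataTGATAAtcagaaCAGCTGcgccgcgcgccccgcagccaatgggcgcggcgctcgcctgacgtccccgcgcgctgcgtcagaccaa
ISL1, Hep3B: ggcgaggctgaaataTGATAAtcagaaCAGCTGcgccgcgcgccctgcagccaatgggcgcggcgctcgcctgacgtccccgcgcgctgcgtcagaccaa
Isl1 and ISL1, second site: agtttgagtaagAGATAAggaagagaggtg

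In liver, 3 of the 9 genes had a summit in their window, Gata4, Gata6 and Nkx2-5, against 69.2% of all protein-coding genes. In MEFs all 9 had one, against 81.3%, and in Hep3B 5 had one, against 72.0%. With a summit within 1 kb of a transcription start site (TSS) of the gene itself, the counts were 2 of 9 in liver (26.6% of all genes), 6 of 9 in MEFs (55.2%) and 3 of 9 in Hep3B (43.7%). The promoter counts were close to the shares of all genes. For the 9 genes the median count of window summits was 0 (liver), 4 (MEFs) and 1 (Hep3B), where the median over all genes was 3, 4 and 1.

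**Figure D1:**
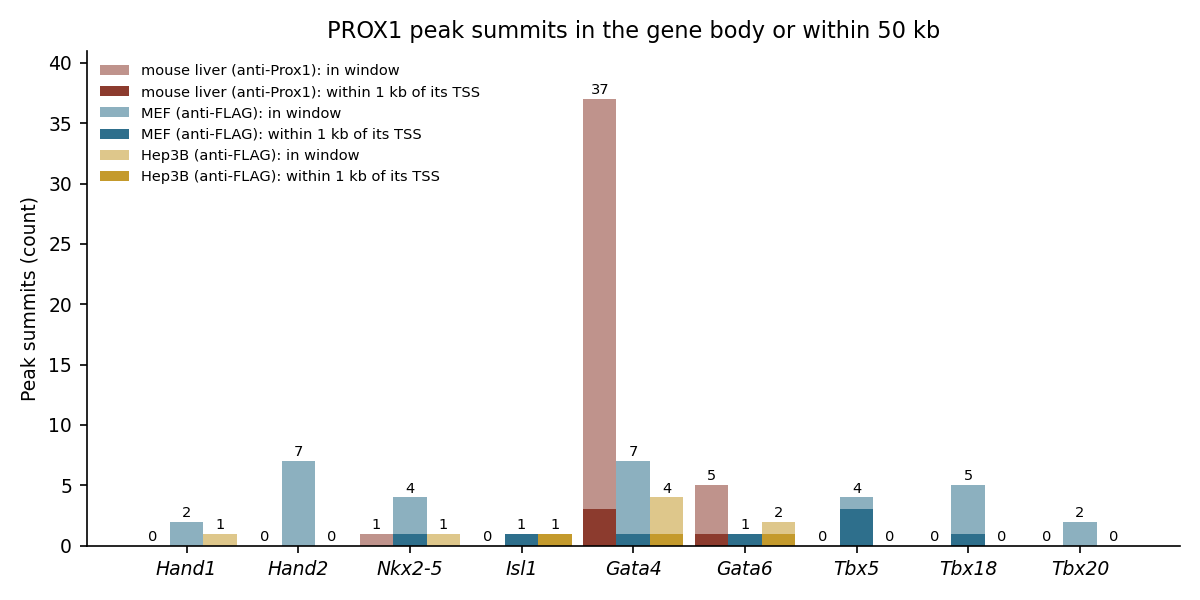
Peak summits counted for each of the 9 genes (x axis) in the 3 lists; the y axis is the number of summits in the gene body or within 50 kb, and the darker lower part of each bar is the number within 1 kb of a TSS of the gene. The liver bar of Gata4 reaches 37, while 6 genes are at 0 in liver and each of the 9 has at least 1 summit in MEFs.

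The lists differ in length and in their lower limits. With the 14369 strongest peaks of each list, 3 of the 9 genes had a MEF window summit, Gata4, Hand1 and Nkx2-5, against 69.5% of all genes, and 1 had a promoter summit, against 33.8%. In liver 2 had a window summit, Gata4 with 11 and Gata6 with 1, against 40.8%, and 0 had a promoter summit, against 4.97%. The smallest peak area was 500 in the liver list and 200 in the others. At the liver limit, 6 of the 9 had a MEF window summit (72.0% of all genes) and 2 a promoter summit (45.0%), and in Hep3B 2 had a window summit (52.1%) and 1 a promoter summit (26.7%).

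The liver peaks were concentrated at 1 gene. Gata4 held 37 of the 43, which is 86.0% of them, Gata6 held 5 and Nkx2-5 held 1. The other 6 genes had none, and the nearest summit lay 53.6 kb from the body of Hand1, 67.0 kb from Tbx5, 85.4 kb from Tbx20, 124 kb from Isl1, 206 kb from Hand2 and 540 kb from Tbx18. Hand1 was thus just outside the 50 kb limit and Tbx18 far from any liver peak. In MEFs the 33 peaks were spread, with 7 each at Hand2 and Gata4, 5 at Tbx18, 4 each at Nkx2-5 and Tbx5, 2 each at Hand1 and Tbx20 and 1 each at Gata6 and Isl1. In Hep3B, GATA4 held 4 of the 9 peaks, GATA6 held 2, and HAND1, NKX2-5 and ISL1 held 1 each. HAND2, TBX5, TBX18 and TBX20 had none there, with the nearest summit 190, 276, 460 and 165 kb from the gene body.

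Peaks were ranked within their own list by the −log10 p at the summit, given here as a percentile of the list, where 100 is the strongest peak. Member peaks had a median percentile of 44.4 in liver, 30.8 in MEFs and 46.0 in Hep3B, where all peaks of a list have a median of 50.0. Ranked by peak area instead, the MEF median was 48.3. In MEFs, 13 of the 33 fell below percentile 25 and 3 reached percentile 75. In liver, 12 of 43 fell below 25 and 10 reached 75, and in Hep3B 3 of 9 fell below 25 and 1 reached 75.

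Member peaks at the genes' own promoters had lower median percentiles than all promoter peaks of their list. The 8 such peaks in MEFs ran from percentile 6.76 to 72.9 with a median of 21.9, where all 12988 MEF peaks within 1 kb of a coding TSS had a median of 67.4. The 3 in Hep3B ran from 10.9 to 46.6 with a median of 18.7, against 59.3 for all 8367 promoter peaks there. The 4 in liver ran from 6.07 to 65.4 with a median of 9.46, against 32.1 for all 7253. Ranked by peak area, the medians were 51.0 against 79.2 in MEFs, 47.5 against 62.3 in Hep3B and 22.0 against 42.9 in liver. The 4 liver summits were all at internal TSSs of Gata4 or Gata6, and none was within 1 kb of the outermost start. This count goes by the summit and leaves out 2 stronger liver peaks. A 4235-bp peak at percentile 91.0 spanned the outermost Gata6 start, but its summit was 1385 bp upstream. A Gata4 peak at percentile 98.5 had its summit 1114 bp from a TSS.

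**Figure D2:**
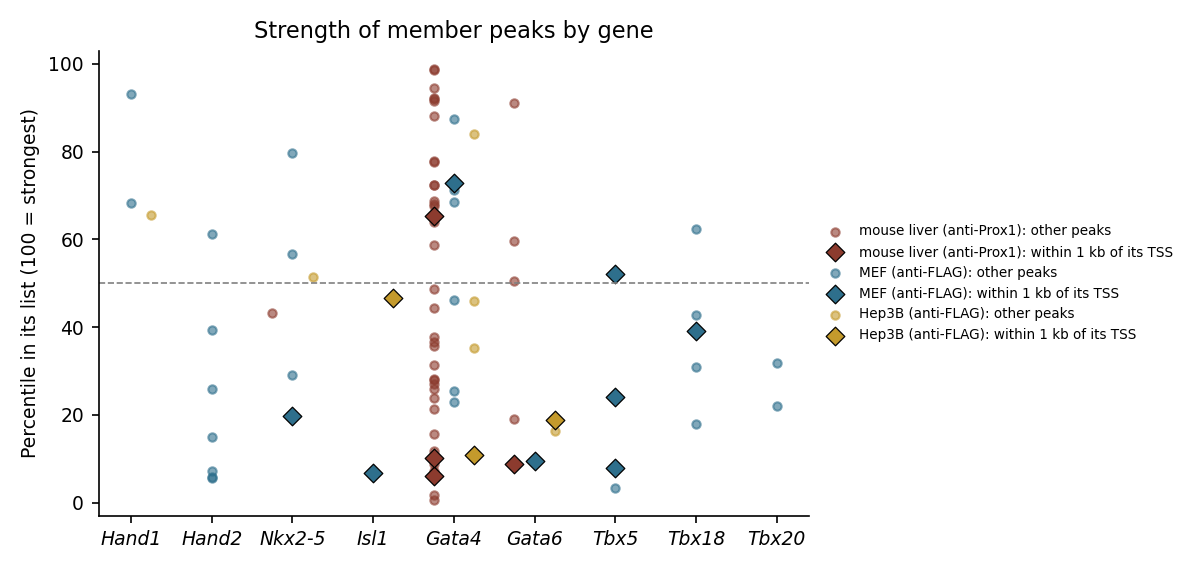
Strength of each member peak by gene (x axis), as its percentile within its own list (y axis, 100 is the strongest, dashed line at 50); large diamonds are peaks within 1 kb of a TSS of the gene and small dots are the other peaks. The diamonds lie mostly in the lower part of the plot, and the dots that reach above 90 are at Hand1 in MEFs and at Gata4 and Gata6 in liver.

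HAND1 and HAND2, the helix-loop-helix factors, had no liver peak, and MEF peaks of unlike kinds. The strongest member peak of the MEF list, at percentile 93.1 with a summit −log10 p of 8.49, was counted for Hand1 but lay at the promoter of another gene, Sap30l, which encodes a protein of the SIN3 histone deacetylase complex (chromosome 11, 57800291 to 57802979, mm10). Its summit was 127 bp upstream of the Sap30l start and 30.6 kb from the Hand1 start. The other Hand1 peak was intergenic, 12.0 kb downstream of a Hand1 TSS, at percentile 68.3, and it was the peak nearest to the Hand1 body. Human HAND1 had the same arrangement in Hep3B. Its only peak was at the SAP30L promoter, with a summit 77 bp upstream of that gene and 70 bp upstream of the divergent SAP30L-AS1, at percentile 65.6 (chromosome 5, 154445607 to 154446073, hg38). CUT&RUN carries no strand, so such a peak cannot be given to either gene of a divergent pair.

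Hand2 had 7 MEF peaks in the 20 kb around it, 5.08 kb of sequence in all, with summits between 6533 bp upstream and 13479 bp downstream of its start on chromosome 8. At least as many summits were found in the windows of 26.1% of all genes. The 2 closest summits, 1032 bp upstream and 1004 bp downstream of the start, fell just outside the 1 kb promoter limit, so that Hand2 is not among the 6 MEF genes with a promoter peak. From upstream to downstream, the percentiles of the Hand2 peaks were 39.4, 7.21, 5.70, 25.9, 5.91, 61.2 and 14.9. Several lay at starts of non-coding genes of the locus: 105 bp and 198 bp downstream of starts of Hand2os1, which runs divergently from Hand2, and 75 bp upstream of Gm34030.

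Nkx2-5 had 1 peak in liver and 4 in MEFs. The liver peak lay in an Nkx2-5 intron, 1251 bp upstream of the nearer TSS, at percentile 43.2 (chromosome 17, 26842703 to 26843108, mm10). The MEF peak at the gene itself was a 264-bp peak over an annotated UTR at percentile 19.8, with its summit 18 bp upstream of the same TSS. The remaining 3 MEF peaks lay together 40.1 to 43.1 kb upstream, in and around the non-coding genes Gm17382 and Gm20468, at percentiles 79.8, 29.1 and 56.7, and the nearest coding TSS for all 3 was that of Kifc5b, a kinesin gene. The liver and MEF peaks at Nkx2-5 did not overlap. Human NKX2-5 had only an intergenic Hep3B peak 48.5 kb from its TSS and 26.7 kb from that of BNIP1, at percentile 51.5.

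Isl1 had a single peak in MEFs, an 850-bp peak over its start at percentile 6.76, with the summit 80 bp downstream of it in the UTR (chromosome 13, 116309470 to 116310319, mm10). Human ISL1 had a single Hep3B peak of 903 bp at percentile 46.6, with the summit 80 bp upstream of ISL1 and 36 bp upstream of the divergent ISL1-DT (chromosome 5, 51383044 to 51383946, hg38). These 2 peaks hold the near-identical stretch printed above, in which the GATA site and E-box lay within 100 bp of the human summit and farther from the mouse one. Counting any such sites, both had a GATA site and an E-box within 100 bp of the summit, where 9.99% of MEF peaks and 9.71% of Hep3B peaks had such a GATA site and 27.2% and 19.5% such an E-box.

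Gata4 stood out in liver. Its window of 172.8 kb held 37 summits, or 21.4 per 100 kb, and only 75 of the 21911 mouse genes (0.342%) had as many in theirs. The peaks covered 28.8 kb, 16.7% of the window, on chromosome 14. Of the summits, 16 lay in Gata4, 16 in its neighbour Fdft1, which encodes squalene synthase of the cholesterol pathway and is transcribed in the same direction, 2 in Neil2, a DNA glycosylase gene between them, and 3 outside these genes. By the nearest coding TSS, 18 belonged to Gata4, 18 to Fdft1 and 1 to Neil2. The median percentile was 46.5 for the 18 nearest to Gata4 and 48.3 for the 18 nearest to Fdft1. The count of 37 thus rests on peaks nearest to a neighbouring gene as much as on those nearest to Gata4, and which gene a peak acts on was not tested.

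Within Gata4, the strongest liver peak was intronic, 2566 bp long at percentile 98.9 with a summit −log10 p of 23.3 (63230827 to 63233392, mm10), 40.2 kb inside the gene from its outermost start. The next, at percentile 98.5, also lay in an intron, 1114 bp downstream of an internal TSS (63211865 to 63213062). The intron peak at percentile 91.6 was 7.84 kb from a TSS. In and just upstream of Fdft1, peaks reached percentile 94.6, 92.3 and 91.9, the last being the longest member peak at 4870 bp. In all, 9 of the 37 reached percentile 75, 5 of them in Gata4, and 10 fell below percentile 25. The annotation gives Gata4 5 coding TSSs. The peaks within 1 kb of one were weaker: percentile 65.4 at 269 bp upstream, 10.2 at 116 bp downstream and 6.07 at 672 bp downstream. Upstream of the outermost start there were only 2 liver peaks, 15.8 and 37.6 kb away, at percentiles 23.8 and 48.7.

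In MEFs the Gata4 window held 7 peaks, 3 in Gata4, 3 in Fdft1 and 1 between Gata4 and Neil2. The peak at the internal Gata4 promoter, 92 bp upstream of a TSS, was 1249 bp long and at percentile 72.9 (63244682 to 63245930, mm10), the highest percentile at any member's own promoter in the 3 lists. The strongest MEF peak of the window was at the Fdft1 promoter, at percentile 87.5. The remaining 5 were at percentiles 23.0 to 71.2. Human GATA4 had 4 Hep3B peaks, of which 1 was at its own promoter, 894 bp upstream of an internal TSS, at percentile 10.9. The promoters of NEIL2 and FDFT1 held 1 each, 28 and 165 bp upstream of their starts, at percentiles 46.0 and 84.1, and the remaining peak lay 48.0 kb upstream of GATA4 at percentile 35.2. A peak at the Fdft1 or FDFT1 promoter was thus present in the window in all 3 lists, with a liver summit 444 bp upstream of the start at percentile 27.0.

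**Figure D3:**
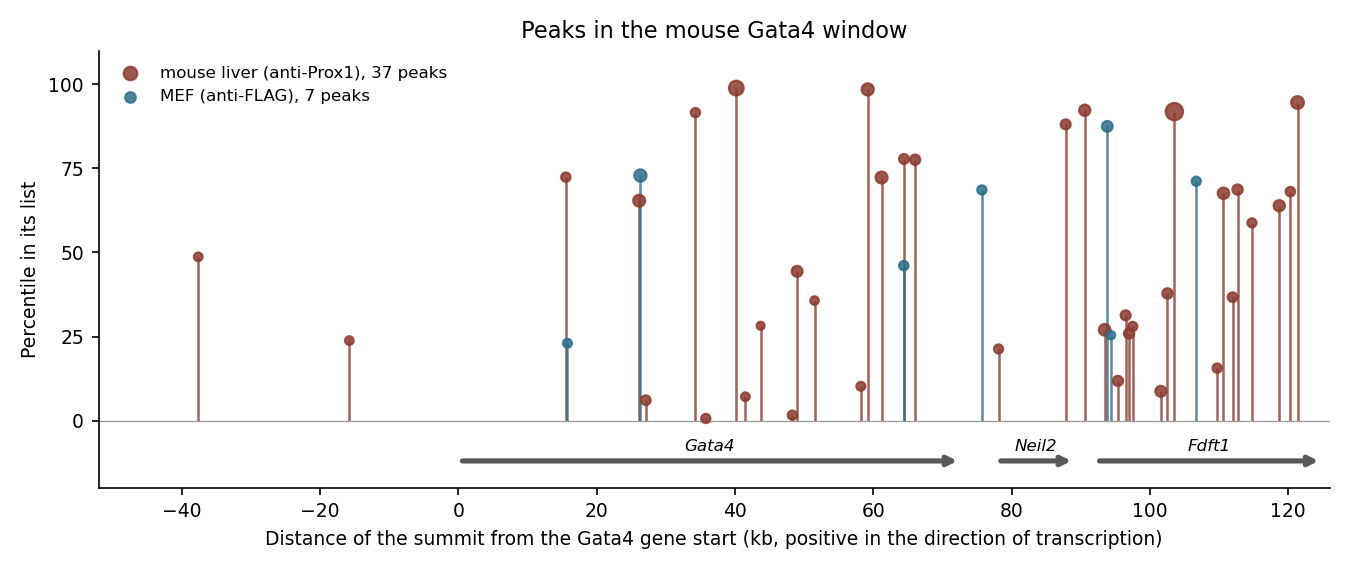
Liver and MEF peaks in the mouse Gata4 window, with the distance of each summit from the outermost Gata4 start on the x axis (kb) and its percentile within its own list as the height of the line; dot size grows with peak length, and the arrows below are the genes. Liver peaks are scattered along the bodies of Gata4 and Fdft1, the first inside Gata4 at 15.5 kb from its outermost start, and 2 are upstream of Gata4. The 7 MEF peaks lie 15.8 to 107 kb downstream of that start.

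Gata6 had 5 liver peaks, 1 MEF peak and 2 Hep3B peaks, on chromosome 18 in both species. The largest liver peak, 4235 bp at percentile 91.0, spanned the outermost Gata6 start (11048475 to 11052709, mm10). Its summit lay 1385 bp upstream of that start, over an exon of the divergent non-coding gene 1010001N08Rik. A second liver peak was 484 bp downstream of a Gata6 TSS at percentile 8.71, and the other 3, at percentiles 59.6, 19.0 and 50.5, were 30.6 and 3.96 kb upstream and 4.84 kb downstream. The MEF peak sat 37 bp downstream of a Gata6 TSS at percentile 9.49. In Hep3B the summits lay 184 and 1156 bp upstream of GATA6, at percentiles 18.7 and 16.4, the second 2 bp upstream of a start of the divergent GATA6-AS1. Gata6 was the only member besides Gata4 with a summit within 1 kb of its own TSS in all 3 lists.

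The T-box genes had no peak in liver or Hep3B. In MEFs, Tbx5 had 4 peaks from 796 bp upstream to 7.03 kb downstream of its outermost start on chromosome 5, 3 of them within 1 kb of a TSS, which was the most of any member in MEFs. Their percentiles were 24.0, 7.89, 52.1 and 3.37. The first was also 48 bp from a start of the non-coding Gm43050. Tbx18 had 5 MEF peaks. The one at its promoter, 201 bp upstream, was at percentile 39.2 (chromosome 9, 87731212 to 87732009, mm10), and an 1892-bp peak followed 1055 bp downstream at percentile 30.8. The others lay 9.61 kb upstream, 22.9 kb downstream in an intron and 78.0 kb downstream, at percentiles 42.8, 62.3 and 18.0. Tbx20 had 2 MEF peaks away from its promoter, 7.04 kb upstream at percentile 22.1 and in an intron 9.04 kb downstream of a TSS at percentile 31.9. The upstream Tbx20 peak had a GATA site 7 bp and an E-box 76 bp from its summit.

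**Figure D4:**
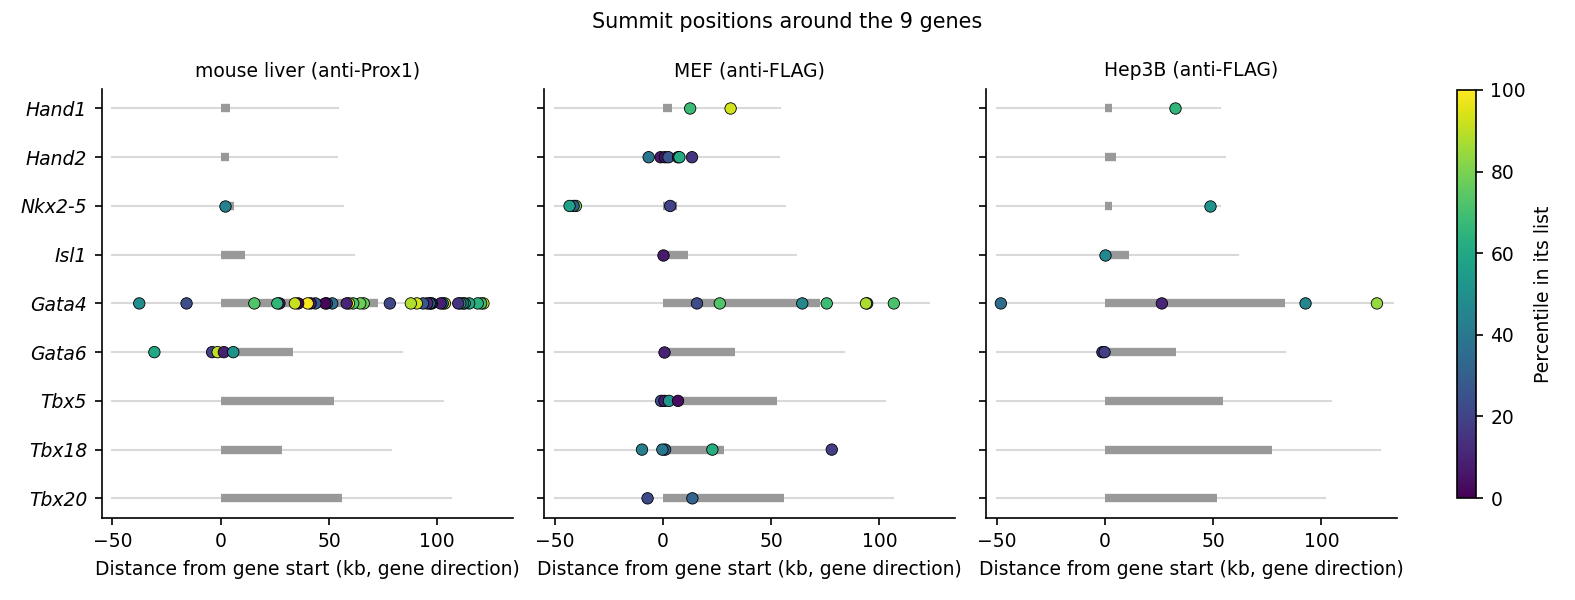
Summits of all member peaks by gene, with the distance from the outermost gene start in kb on the x axis (positive in the direction of transcription), 1 panel per list; thick grey bars are gene bodies, thin lines are the windows and the colour is the percentile within the list. In MEFs most summits of Hand2, Tbx5, Isl1 and Gata6 lie close to the start, whereas the liver summits of Gata4 are spread over 159 kb.

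Of the 43 liver peaks, 4 lay within 1 kb of a TSS of the member itself, 2 at another coding promoter, 2 at a non-coding start and 35 elsewhere. In MEFs the counts were 8, 3, 8 and 14 of 33, and in Hep3B 3, 3, 1 and 2 of 9. The member had the nearest coding TSS for 24 of 43 in liver, 25 of 33 in MEFs and 5 of 9 in Hep3B. Over all peaks of the lists, 14.5% in liver, 32.0% in MEFs and 58.2% in Hep3B lay within 1 kb of a coding TSS, and the counts at coding promoters were near these shares. The median distance to the member's TSS was 7038 bp in MEFs, 15761 bp in liver and 32307 bp in Hep3B. The liver value rests mostly on the Gata4 window, which held 37 of the 43 peaks.

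Liver and MEF peaks, which share a genome, were compared by overlap. Of the 33 MEF member peaks, 6 (18.2%) shared 1 bp or more with a liver peak, against 21.4% of all MEF peaks, and of the 43 liver member peaks 8 (18.6%) overlapped a MEF peak, against 18.9% of all liver peaks. These shares were close to those of the whole lists. The 6 MEF peaks were 5 at Gata4 and 1 at Gata6. In 1 of the 8 overlapping pairs the summits were within 100 bp of each other, 28 bp apart in a Gata4 intron, at percentile 46.1 in MEFs and 77.8 in liver (63207069 to 63207506 and 63206905 to 63207431, mm10). This is the pair with the AGGTCA site printed above. At the Gata4 promoter the MEF peak overlapped 2 liver peaks, by 614 and 86 bp.

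A match to the PROX1 consensus, a 12-base sequence equal to its own reverse complement, with at most 2 mismatches was present in 9 of 43 liver member peaks (20.9%, against 14.1% of all liver peaks), 7 of 33 in MEFs (21.2%, against 15.3%) and 1 of 9 in Hep3B (13.3% of all Hep3B peaks). No member peak had a match with fewer than 2 mismatches. In liver, 6 of the 9 were in the Gata4 window and 3 at Gata6. The MEF peaks with a match were 1 each at Hand1, Hand2, Nkx2-5, Gata4 and Gata6 and 2 at Tbx18, and the Hep3B peak was at GATA6. Matches lay 26 to 2150 bp from the summit in the Gata4 liver peaks, so several were far from the point of highest signal. A match is only a resemblance of letters and longer peaks hold more of them.

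Within 100 bp of the summit, a GATA site (AGATAA or TGATAA, either strand) was found in 6 of 9 Hep3B member peaks, against 9.71% of all Hep3B peaks. They were at NKX2-5, ISL1, GATA6 and 3 of the 4 at GATA4. Not all lay near a member's start: the NKX2-5 peak was 48.5 kb from its TSS. Of the GATA4 peaks, 1 was 48.0 kb upstream and 1 at the FDFT1 promoter. The shares were 5 of 33 in MEFs (9.99% of all) and 5 of 43 in liver (19.6% of all). The nuclear receptor hexamer AGGTCA was found in 9 of 43 liver member peaks, all in the Gata4 window, where 26.0% of the whole list had it. In MEFs it was in 5 of 33 (11.3% of the list), 3 of them at Gata4, and in Hep3B in 0 of 9 (9.78%). E-boxes of the forms CAGCTG and CATCTG were found in 10 of 43, 7 of 33 and 2 of 9 (25.2%, 27.2% and 19.5% of all peaks). In base composition the MEF member peaks were richer in CpG than the list, with a median observed to expected ratio of 0.517 against 0.310 and a median GC content of 54.1% against 51.2%. The liver member peaks had 48.0% GC against 47.0%, and the Hep3B ones 60.8% against 59.1%.

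The other lists of genes, chosen with results of these data known, place the 9 factors among their partners and targets. Over all genes, 69.2%, 81.3% and 72.0% had a window summit and 26.6%, 55.2% and 43.7% a promoter summit (liver, MEFs, Hep3B). Of 22 other cardiac regulators, 15 had a window summit and 4 a promoter summit in liver, 22 and 15 in MEFs and 13 and 9 in Hep3B. In MEFs the strongest promoter peaks among them were at Srf, which encodes serum response factor (percentile 97.5), Foxc1, a forkhead factor (95.8), and Hey1, a Notch target (95.2). In Hep3B they were at SRF (96.3), TBX2 (79.3) and HEY1 (72.2), and in liver at Tbx3 (78.7), Hopx (55.8) and Tead1 (11.4). None of the promoter peaks of the 9 factors reached percentile 75, but they numbered only 4, 8 and 3 (liver, MEFs, Hep3B). The values above are the strongest picked from a longer list.

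Cardiac muscle proteins are the downstream genes of these factors. The promoter counts of the muscle protein genes were below the shares of all genes in each list (26.6%, 55.2% and 43.7% in liver, MEFs and Hep3B). Of 19, none had a promoter summit in liver or Hep3B and 5 had one in MEFs. The strongest were at Myl4, an atrial myosin light chain (percentile 69.0), Nppb, a natriuretic peptide gene (67.4), and Actn2, an alpha-actinin of the Z disc (50.1). A window summit was found for 15, 18 and 13 of the 19 (liver, MEFs, Hep3B), against 69.2%, 81.3% and 72.0% of all genes. Of 14 signals that induce the heart or their receptors, 12, 14 and 10 had a window summit and 0, 8 and 4 a promoter summit, with the strongest at Notch1 (96.2), Nrg1 (82.8) and Wnt11 (54.8) in MEFs and ERBB2 (98.4), DKK1 (57.5) and BMP4 (22.6) in Hep3B.

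Hepatocyte transcription factors were counted in the same way. In liver all 11 had a window summit and 10 a promoter summit, with 242 summits in all, and the strongest promoter peaks were at Nr1h4, the bile acid receptor (percentile 96.5), Foxa2 (88.6) and Rxra (87.8). Hnf4a had 37 window summits, the same number as Gata4. In MEFs 11 of 11 had a window and 7 a promoter summit, with Foxa3 (97.9), Cebpa (77.3) and Cebpb (54.1) strongest, and in Hep3B 10 and 7, with FOXA3 (97.7), CEBPA (95.2) and FOXA1 (71.6). Cell type markers were counted at promoters, where the shares of all genes were 26.6%, 55.2% and 43.7% (liver, MEFs, Hep3B). All 7 hepatocyte marker genes found had a promoter peak in liver and 1 of 7 in MEFs. Fibroblast markers had one in 1 of 10 in liver and 9 of 10 in MEFs. In Hep3B the hepatocyte and fibroblast counts were 2 of 8 and 2 of 10. Endothelial markers had one in 0, 2 and 0 of 6 and cholangiocyte markers in 0, 2 and 3 of 4 (liver, MEFs, Hep3B). Peaks record binding and not expression, and the markers were chosen with results of these data known, so these counts are no check of the labels.

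**Figure D5:**
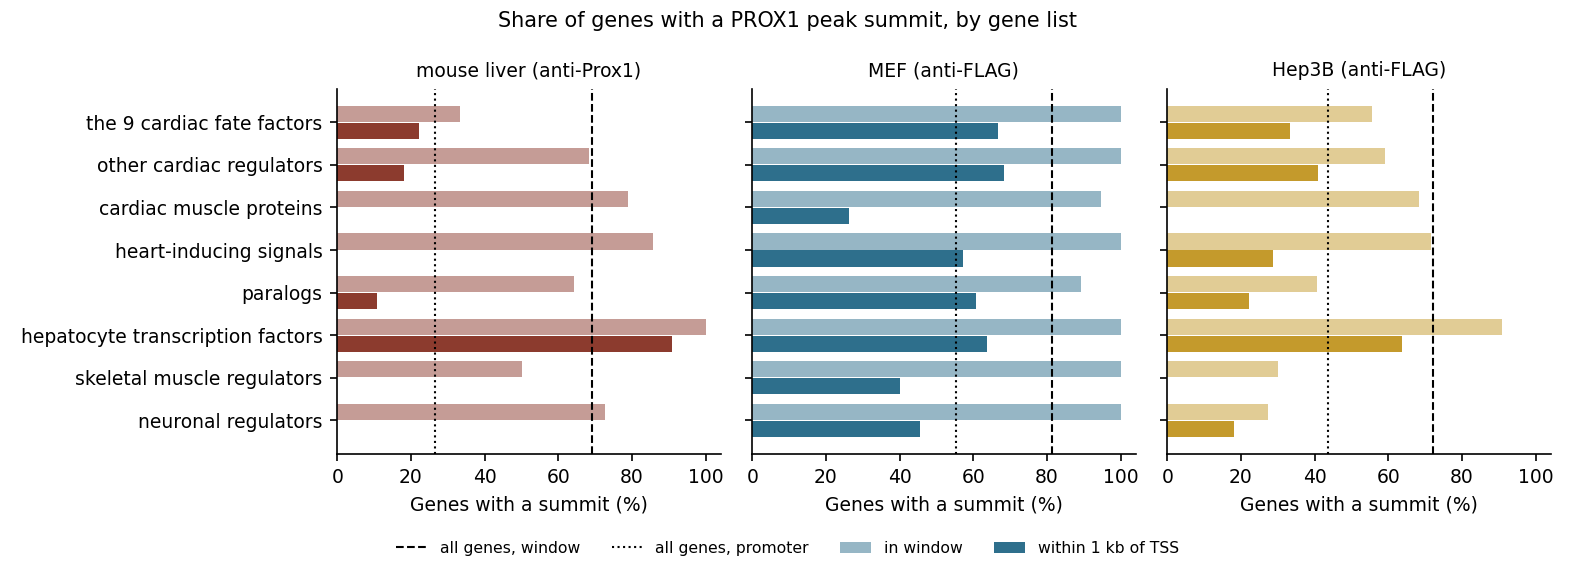
Share of genes of each list with a peak summit in the window (lighter bars) or within 1 kb of a coding TSS (darker bars), in percent, 1 panel per peak list; the dashed and dotted lines are the shares over all protein-coding genes. The bars of the 9 cardiac fate factors fall short of the dashed line in liver and Hep3B and pass it in MEFs, while the hepatocyte transcription factors pass the dashed line with the lighter bar and the dotted line with the darker bar in the 3 panels.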

How the data were processed

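CUT&RUN was measured in 22 samples of 6 groups. Per the labels and the study's methods, the authors trimmed paired reads with Trim Galore 0.6.6, aligned them to mm10 or hg38 with Bowtie2 2.4.2 and called peaks with Genrich 0.6.1 over the antibody samples of a group together. The study describes the binding sites as set against IgG, and the stated calling command does not show how the IgG samples entered. The 3 deposited peak lists give the peak area as a signal value, the −log10 p and q at the summit and the summit offset. Coordinates are 1-based here. Genes and TSSs came from GENCODE M21 and 44, and a promoter reached 1 kb to either side of the TSS of any protein-coding transcript. The PROX1 consensus was written from general knowledge and searched in peaks widened by 20 bp. Motifs were counted on both strands. Of the Hep3B peaks, 14361 on assembled chromosomes were searched for sequence. The genes named are the 9 members, coding genes with a TSS within 1 kb of a member summit, up to 3 genes a list with the strongest promoter peak and the 3 closest paralogs, except that for the skeletal muscle list only the strongest is reported here. Kifc5b, BNIP1, Hnf4a, the non-coding genes and paralogs tied for a place were named after their values were seen. Members and lists were chosen with earlier results of these data known. Assignment and scan were checked on simulated peaks with Python 3.11.15, pandas 2.3.3 and Biopython 1.88.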

Additional observations from a re-analysis of the deposited data

How the results depend on the processing

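Of 89 alternative values for 16 counts and medians, 59 stayed within 1.5 times the value reported, and 30 moved. With a 10 kb window, liver held 22 member peaks, and Hep3B 3 genes and 5 peaks. With 100 kb, liver held 6 genes and 66 peaks. At the area limit of the liver list, MEFs held 10 peaks, 2 genes with a promoter summit and 2 peaks overlapping liver, and Hep3B 2 genes, 2 peaks and 1 promoter gene. With the 14369 strongest peaks of each list, liver held 12 peaks and 0 promoter genes, and MEFs 3 genes, 7 peaks and 1 promoter gene. Counting only peaks whose nearest coding TSS is a member's left 24 liver peaks, and 3 genes and 5 peaks in Hep3B. With the outermost gene start as the only TSS, 0 genes had a liver promoter summit. Shares of all genes were not counted for the 10 kb and 100 kb windows, the nearest-TSS rule or the outermost start. The gene counts under those settings therefore cannot be set against all genes. The consensus was found in 0, 0 and 0 member peaks with up to 1 mismatch and in 33, 25 and 6 with up to 3 (liver, MEFs, Hep3B). With summits within 100 bp, 1 MEF peak matched liver. Some of these settings leave a smaller or larger set of peaks and others do not, and the cause of the moves was not tested. The q limit of 0.05 changed no count of genes or peaks. By area in place of p, the median percentile was 52.8, 48.3 and 44.7 (liver, MEFs, Hep3B), and the Hep3B median was 18.7 with a 10 kb window and also 18.7 over peaks nearest to a member's TSS. No paired analysis was possible because the lists pool their samples, and leaving out a sample was not possible for the same reason.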

Other observations

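Regulators of other fates were described in the same way. Over all genes, 69.2%, 81.3% and 72.0% had a window summit and 26.6%, 55.2% and 43.7% a promoter summit (liver, MEFs, Hep3B). The MEF promoter counts of the muscle and neuronal regulators were below that MEF share. Of 10 skeletal muscle regulators, all 10 had a MEF window summit and 4 a MEF promoter summit, the strongest at Eya1 (percentile 80.1), whereas 5 had a window summit in liver and 3 in Hep3B, with no promoter summit in either. Of 11 neuronal regulators, 11 had a window summit and 5 a promoter summit in MEFs, led by Dlx2 (73.0), Myt1l (60.2) and Pax6 (40.4). In liver 8 had a window summit and none a promoter summit, and in Hep3B 3 and 2, at DLX2 (66.3) and PAX6 (36.6).

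Relatives of the 9 factors by sequence family numbered 28, some of which are also among the other cardiac regulators. In liver 18 had a window and 3 a promoter summit, in MEFs 25 and 17, and in Hep3B 11 and 6 of the 27 found in the human annotation. These counts were below the shares of all genes in liver and Hep3B and above them in MEFs. The strongest promoter peaks were at Gata3 (percentile 95.8), Tbx15 (88.9) and Tbx3 (84.9) in MEFs, at ISL2 (95.3), TBX6 (90.2) and TBX2 (79.3) in Hep3B and at Tbx3 (78.7), Lhx1 (45.2) and Tbx6 (42.1) in liver. By window summits in liver, MEFs and Hep3B, the relative closest to the members' medians was Gata3, with 0, 4 and 2, followed by Eomes with 0, 5 and 0 and Lhx3 with 1, 5 and 1, by the sum of differences over the 3 lists, and Tbx3 and Twist1 were as close as the last pair.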
